A study of Homo sapiens with 8 samples.

Results

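The ZNF genes of human chromosome 19 were followed in total RNA and in RNA recovered with hnRNP U, from interphase and mitotic cells. Members were the genes of the deposited gene table that lie on chromosome 19 and are named ZNF followed by a number and at most 1 further letter. The rule gave 220 of 13471 genes in the table and used no measured value. A further 235 ZNF genes on other chromosomes, chosen by the same name rule, served as the comparison, for 455 ZNF genes in all. The cells were hTERT-RPE1, which are human retinal pigment epithelium cells made immortal by telomerase. There were 4 groups of 2 libraries, 8 in all: interphase and mitosis, each without immunoprecipitation (IP) and after IP with an antibody to hnRNP U. All cells had spent 24 h in 2 mM thymidine, a block to DNA replication. The mitotic cells were in addition released for 6 h and then exposed overnight to STLC, which blocks the spindle motor Eg5, so phase and drug treatment changed together. No control IP was analysed here, and RNA bound by hnRNP U therefore cannot be told apart from RNA carried along.

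Most ZNF genes encode C2H2 zinc finger proteins, in which a row of short finger modules, each held by a zinc ion, reads a DNA sequence. Many carry a KRAB domain, which recruits the corepressor TRIM28 (KAP1) and through it the histone methyltransferase SETDB1, and a large share of them silence transposable elements. Chromosome 19 carries most of the large human clusters of these genes, which arose by repeated tandem duplication. The protein hnRNP U, also called SAF-A, binds RNA and chromatin in the nucleus and leaves chromosomes in mitosis. It is best known for keeping XIST RNA on the inactive X chromosome.

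Levels are in FPKM, that is, fragments per length of transcript and size of library. The number of fragments per library is not given in the files, so no counting interval is given. The median of all genes lay between 5.96 and 7.13 FPKM in the 8 libraries. The 10 highest genes made up 58.4% to 63% of summed FPKM where no IP was done and 12.4% to 20.6% after IP. Replicates of a group correlated over the 220 members at r = 0.981 to 0.989 on the log2(FPKM + 1) scale. The labels do not say that replicates were separate cultures, so p-values measure the spread between these libraries, which may be technical. Of 13 cell type markers, 6 had a row. The pigment epithelium transcription factors MITF, OTX2 and PAX6 and the keratins KRT8 and KRT18 were each above 3 FPKM in every library, while the pigment cell gene PMEL was at 0.144 FPKM or less. RPE65, BEST1, RLBP1 and TYRP1, defining genes of mature pigment epithelium, and PTPRC, PECAM1 and EPCAM, markers of other cell types, had no row.

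The transcripts of the family share letters, because neighbouring fingers are joined by a conserved linker. The 14 bases ACTGGAGAGAAACC are the most used spelling of the linker peptide TGEKP, up to the first bases of its last codon, and occur in frame 504 times in the members' coding sequences. These letters are found in the longest annotated transcript of 125 members (56.8%), of 66 ZNF genes on other chromosomes (28.1%), and of 13 of 12686 genes with other names (0.102%). The reverse complement occurs in none of the 455 ZNF transcripts and in 1 of the others. ZNF845 holds 16 copies in its coding sequence, the highest number among the members. A stretch of it is shown because it spans 1 finger from linker to linker, 84 bases from start to start (coding bases 1048 to 1145, linker in capitals, GENCODE release 29 on GRCh38):
ZNF845: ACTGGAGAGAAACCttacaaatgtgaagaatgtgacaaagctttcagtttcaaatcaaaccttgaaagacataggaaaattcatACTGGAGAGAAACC
The members with the largest rise and the largest fall in the interphase IP, ZNF507 and ZNF581, hold no copy of the linker letters. They are shown because they differ in base composition. The middle 150 bases of each coding sequence are given with CG pairs in capitals (bases 1361 to 1510 of ZNF507 and 221 to 370 of ZNF581):
ZNF507: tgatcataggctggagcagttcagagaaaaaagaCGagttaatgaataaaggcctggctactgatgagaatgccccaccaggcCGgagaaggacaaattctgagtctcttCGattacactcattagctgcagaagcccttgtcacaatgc
ZNF581: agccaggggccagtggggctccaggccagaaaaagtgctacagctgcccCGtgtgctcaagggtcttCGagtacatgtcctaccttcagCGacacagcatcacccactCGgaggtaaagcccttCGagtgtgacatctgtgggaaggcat
The ZNF507 stretch is 46.7% GC with 3 CG pairs, and the ZNF581 stretch is 58% GC with 5. Over the whole coding sequence, GC content is 44.1% in ZNF507 and 62.4% in ZNF581.

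Most members were expressed at a low level. The median of the 8-library mean was 2.67 FPKM over the members (quartiles 1.27 and 4.69), against 3.68 FPKM over ZNF genes elsewhere and 7.64 FPKM over all genes. Means below 1 FPKM were found for 47 members (21.4%), and no member was listed at 0. By group, the members' median was 1.93 FPKM in interphase without IP, 3.12 FPKM in the interphase IP, 1.7 FPKM in mitosis without IP and 2.83 FPKM in the mitotic IP. The 5 highest members by mean FPKM were ZNF146, ZNF121, ZNF460, ZNF260 and ZNF714. ZNF146, a protein made up almost wholly of fingers, stood at 34.7 and 32.7 FPKM in interphase without IP, 75.8 and 81.3 in the interphase IP, 61.1 and 63.5 in mitosis without IP, and 86.5 and 104 in the mitotic IP. It was higher in both IP groups than without IP, and its locus overlaps that of another ZNF row, so its reads may be shared. ZNF121 followed the same order, with 19.3 and 19.3, 45.1 and 52.2, 30.6 and 33.2, and 59.8 and 65.6 FPKM in the same 4 groups. Close copies add to the uncertainty of single genes: 38.2% of the 50-base stretches of the ZNF417 transcript also occur elsewhere, mostly in ZNF587, and 33.7% of those of ZNF443, mostly in ZNF799. The median share over the members was 0.888%.

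The first comparison asked which members were more or less abundant in the interphase IP than in interphase RNA without IP. ZNF transcripts were mostly higher in the IP: 150 of 220 members rose, 20 fell and 50 were not called, at an adjusted p below 0.05 in limma. Among all genes 37.6% rose and 37% fell, and among ZNF genes on other chromosomes 137 of 235 rose and 50 fell. The median log2 fold change was 0.54 over the members, 0.52 over ZNF genes elsewhere and 0.02 over all genes, on the log2(FPKM + 1) scale used for each fold change here. Each of the 170 calls went the same way in the 2 same-numbered pairs of libraries, as did each of the 10051 calls among all genes. A change of at least 1 on the log2 scale was called upward in 44 members (20%) and downward in 8 (3.64%), against 16.9% and 21.4% of all genes and 28.1% and 5.96% of ZNF genes elsewhere. The authors' deposited ratios of IP to total RNA had medians of 1.8 and 1.94 over the members in replicates 1 and 2. The medians were 1.63 and 1.74 over ZNF genes elsewhere, and 1.03 and 1.02 over all genes. Ratios were above 1 in both replicates for 171 of 220 members, 153 of 235 ZNF genes elsewhere and 6306 of 13471 genes.

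ZNF507 (chromosome 19, 32345594 to 32387667, plus strand), a zinc finger gene outside the large clusters, rose most. It stood at 3.61 and 3.95 FPKM without IP and at 19.6 and 18.8 FPKM in the IP. The ratio of means was 5.08 and the log2 fold change was 2.08 ± 0.098 (SE, adjusted p = 4.62e-07 in limma). Both IP libraries lay above both without IP, as they did in 44.5% of all genes. ZNF260 (36510695 to 36528660, minus strand) went from 7.39 and 5.45 FPKM to 27.3 and 28.7, with a log2 fold change of 1.98 ± 0.16 (adjusted p = 6.54e-06 in limma). ZNF91, a KRAB protein known to silence SVA retroelements, rose from 3.24 and 2.26 FPKM to 11.6 and 15 FPKM, a log2 fold change of 1.93 ± 0.17 (adjusted p = 9.16e-06 in limma). ZNF780A rose by 1.64, ZNF724P by 1.62, ZNF221 by 1.51, ZNF808 by 1.38 and ZNF417 by 1.35 on the log2 scale. ZNF808 is known for silencing MER11 elements during pancreas development. The close copy of ZNF417, ZNF587, rose as well, from 3.51 and 3.85 FPKM to 9.05 and 9.93. ZNF93, a KRAB protein known to repress L1 elements, went from 1.33 and 1.37 FPKM to 2.54 and 3.31, a log2 fold change of 0.73 ± 0.16.

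Fewer members fell. ZNF581 (55635459 to 55645622, plus strand) stood at 12.5 and 15 FPKM without IP and at 1.55 and 2.14 FPKM in the interphase IP, and its log2 fold change was -2.38 ± 0.15 (adjusted p = 1.33e-06 in limma). ZNF428 went from 26.4 and 28.6 FPKM to 5.54 and 3.99, ZNF524 from 8.35 and 7.71 FPKM to 0.725 and 1.39, and ZNF787 from 14 and 14.6 FPKM to 3.31 and 2.53. In each of these genes both IP libraries lay below both libraries without IP, as they did in 42.8% of all genes. The ratio of means was 0.204 or less. ZNF358, ZNF579, ZNF580 and ZNF444 fell by 2.02, 1.76, 1.63 and 1.61 on the log2 scale. With the length and GC trends of all genes removed, ZNF580 was at 0.07 (adjusted p = 0.726 in limma) and ZNF524 at -0.15 (adjusted p = 0.472 in limma), neither called. These 8 genes have GC contents of 57.8% to 70.3% in their longest transcripts, against a median of 42.3% over the members.

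**Figure D1:**
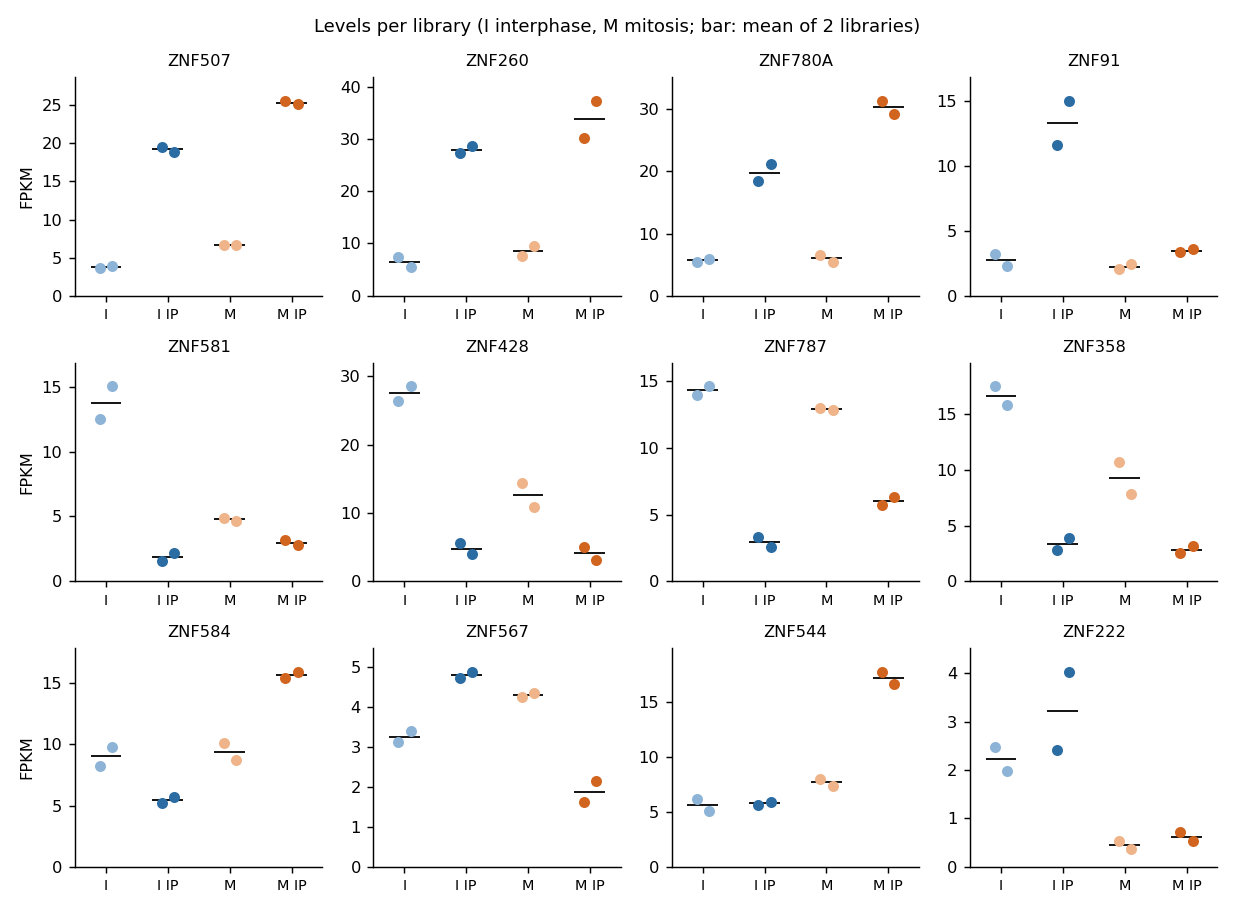
FPKM (vertical axis, linear, from 0 in each panel) of 12 chromosome 19 ZNF genes in the 2 libraries of each group (I interphase, M mitosis, with and without IP; bar, mean of the 2). ZNF507, ZNF260, ZNF780A and ZNF91 were higher in the IP, ZNF581, ZNF428, ZNF787 and ZNF358 were lower, and ZNF584 and ZNF567 moved in opposite directions in the 2 phases.

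The same comparison in mitosis also gave mostly increases. In the mitotic IP 135 members were higher and 19 lower than without IP, and 66 were not called, against 32.8% higher and 31.7% lower among all genes. The median log2 fold change was 0.48 over the members, 0.39 over ZNF genes elsewhere, of which 123 of 235 rose and 22 fell, and 0.01 over all genes. A change of at least 1 was called upward in 40 members (18.2%) and downward in 2 (0.909%), against 12.1% and 12.7% of all genes and 23.8% and 2.13% of ZNF genes elsewhere. ZNF780A rose most, from 6.57 and 5.49 FPKM to 31.4 and 29.3, a ratio of means of 5.03 and a log2 fold change of 2.16 ± 0.12 (adjusted p = 6.4e-06 in limma). ZNF260 went from 7.55 and 9.58 FPKM to 30.2 and 37.4, and ZNF507 from 6.59 and 6.63 FPKM to 25.6 and 25.1. These 3 genes were thus near the top in both phases, and none of the IP libraries overlapped the libraries without IP. Both mitotic IP libraries lay above both without IP in 76.4% of the members and in 41.4% of all genes. ZNF551, ZNF229, ZNF587B, ZNF100 and ZNF749 rose by 1.66, 1.58, 1.49, 1.42 and 1.39 on the log2 scale.

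ZNF428 fell most in the mitotic IP, from 14.3 and 10.8 FPKM to 4.94 and 3.18, with a log2 fold change of -1.43 ± 0.2 (adjusted p = 0.000281 in limma). ZNF358 had a log2 fold change of -1.41, ZNF787 of -0.99, ZNF444 of -0.97, ZNF534 of -0.94, ZNF567 of -0.89, ZNF317 of -0.83 and ZNF653 of -0.82. ZNF653 and ZNF358 are GC-rich (65.2% and 69.1%), while ZNF534 and ZNF567 are not (41.2% and 38.2%). With length and GC trends removed, ZNF787 and ZNF653 were at -0.25 and -0.11 in mitosis and lost their calls. ZNF534 was the only one of the 20 members that fell in the interphase IP with a GC content below 50%. Without replicate 1 of mitosis without IP, 11 members were called lower in the mitotic IP, against 19 with all libraries.

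**Figure D2:**
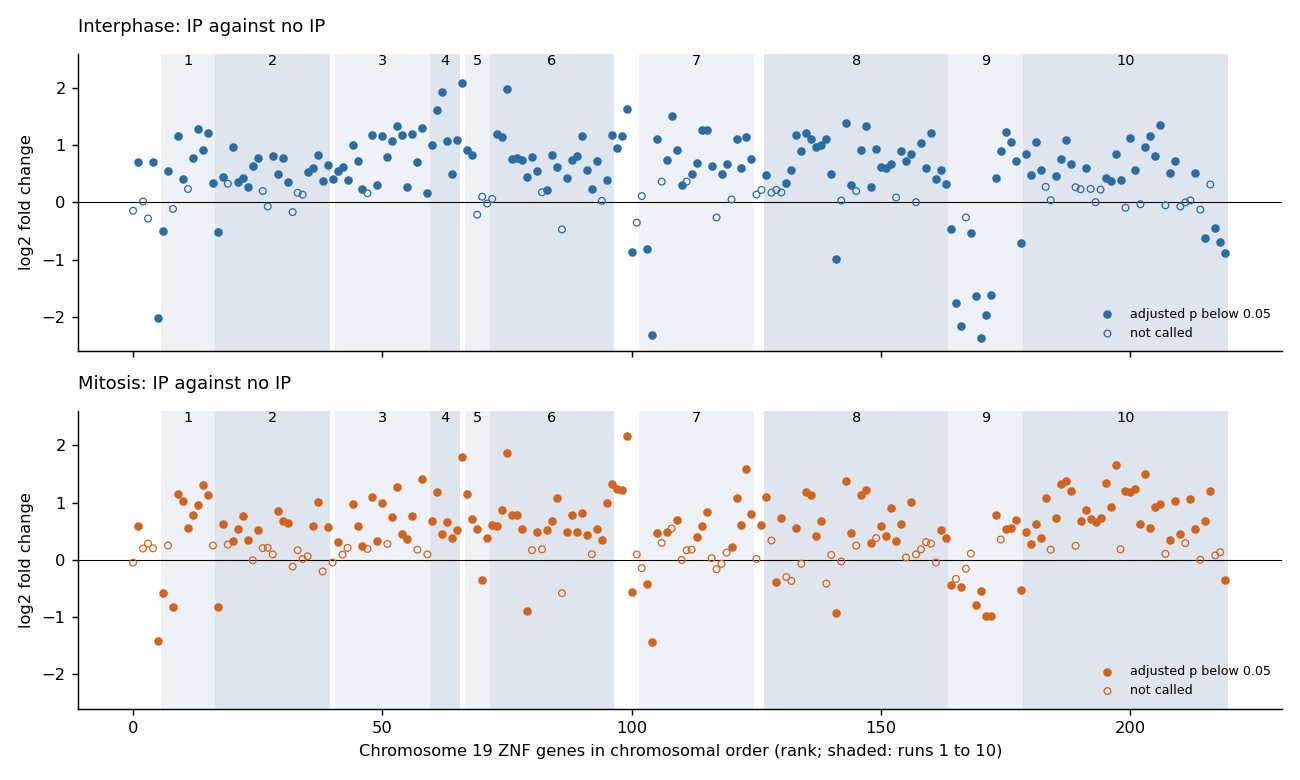
Log2 fold change of the IP against no IP (vertical axes) for the 220 chromosome 19 ZNF genes in chromosomal order (horizontal axis, rank), in interphase above and mitosis below. Filled points have an adjusted p below 0.05 and shaded bands mark runs 1 to 10. Most points lie above 0 in both phases, and the negative group in run 9 is deeper in interphase.

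Between the phases, 115 members (52.3%) were higher in the IP in both and 15 (6.82%) were lower in both, against 24.8% and 23% of all genes and 44.7% and 6.81% of ZNF genes elsewhere. A further 34 (15.5%) rose in interphase and were not called in mitosis, against 9.06% of all genes and 11.5% of ZNF genes elsewhere. Another 19 (8.64%) rose in mitosis and were not called in interphase, against 5.55% and 5.53%. These counts do not by themselves show a difference, which was tested as an interaction. An effect is called larger in mitosis where its signed log2 fold change was higher there, so that a weaker depletion also counts as larger. The effect of the IP was larger in mitosis in 34 members and smaller in 34 (30.9% of members together), against 27.2% and 19.9% of all genes (47.1% together), and 38 and 47 of 235 ZNF genes elsewhere. The median difference was -0.01 over the members and 0.07 over all genes. These calls were sensitive to single libraries: leaving out 1 library gave 18 to 28 larger and 19 to 34 smaller effects, with 18 to 20 larger without either library of interphase without IP, without replicate 1 of either IP group or without replicate 2 of mitosis without IP. The smaller effects numbered 19 to 22 without either library of interphase without IP, without replicate 2 of the interphase IP, without replicate 1 of the mitotic IP or without replicate 2 of mitosis without IP. With quantile normalization the split was 20 larger and 54 smaller. With length and GC trends removed it tilted the other way, and larger effects outnumbered smaller ones.

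ZNF584 and ZNF567 were the members whose effects were called in opposite directions. A fall in interphase with a rise in mitosis was thus called in 0.455% of members, against 2.47% of all genes. A rise in interphase with a fall in mitosis was called in 0.455% of members, against 3.73% of all genes. Among ZNF genes elsewhere the share was 2.13% for either pattern. ZNF584 (58401504 to 58418327, plus strand) stood at 8.24 and 9.79 FPKM without IP and 5.24 and 5.7 in the IP in interphase, and at 10.1 and 8.71 FPKM without IP and 15.4 and 15.9 in the IP in mitosis. Its log2 fold change was -0.63 in interphase and 0.68 in mitosis, a difference of 1.31 ± 0.17 (adjusted p = 0.000469 in limma). ZNF567 (36687612 to 36727701, plus strand) ran the other way, from 3.11 and 3.38 FPKM to 4.71 and 4.87 in interphase and from 4.25 and 4.35 FPKM to 1.61 and 2.15 in mitosis, a difference of -1.34 ± 0.18 (adjusted p = 0.000505 in limma). In both genes the IP libraries lay on opposite sides of the libraries without IP in the 2 phases. For each phase and direction taken alone, such a separation was found in 40.1% to 44.5% of all genes.

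The other members with the largest positive differences were of different kinds. ZNF581, ZNF524 and ZNF579 had differences of 1.84, 1.68 and 1.42, and each had a deeper fall in the interphase IP than in the mitotic one, with log2 fold changes of -2.38, -2.15 and -1.76 against -0.54, -0.47 and -0.33 (that of ZNF579 in mitosis was not called). With length and GC trends removed, the difference of ZNF524 was 0.59 and lost its call. Their level without IP was also lower in mitosis: ZNF579 stood at 6.32 and 6.05 FPKM in interphase and at 1.29 and 0.789 FPKM in mitosis without IP, and at 1.51, 0.802, 0.609 and 0.611 FPKM in the 4 IP libraries. ZNF671 and ZNF544, with differences of 1.31 and 1.04, were not called in the interphase IP and rose in the mitotic one. ZNF544 stood at 6.19 and 5.1 FPKM without IP and 5.66 and 5.91 with it in interphase, and at 7.98 and 7.38 FPKM without IP and 17.8 and 16.7 with it in mitosis. Both mitotic IP libraries of ZNF544 lay above the other 6, and without IP it was higher in mitosis than in interphase by 0.39 ± 0.12 on the log2 scale (adjusted p = 0.0234 in limma).

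The largest negative differences were those of ZNF480 and ZNF91. ZNF480 went from 4.29 and 3.05 FPKM to 8.78 and 9.15 in interphase, and from 5.44 and 5.96 FPKM to 3.35 and 4.82 in mitosis, a difference of -1.52 ± 0.25 (adjusted p = 0.0013 in limma). ZNF91 was at 2.03 and 2.45 FPKM without IP and 3.32 and 3.56 with it in mitosis, against the 11.6 and 15 FPKM of the interphase IP, a difference of -1.47 ± 0.24 (adjusted p = 0.0013 in limma). ZNF432 and ZNF615 had differences of -0.96 and -0.94. That of ZNF221 was -0.97 (adjusted p = 0.0343 in limma) and lost its call without any 1 of 7 libraries, with values of -1.09 to -0.57.

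**Figure D3:**
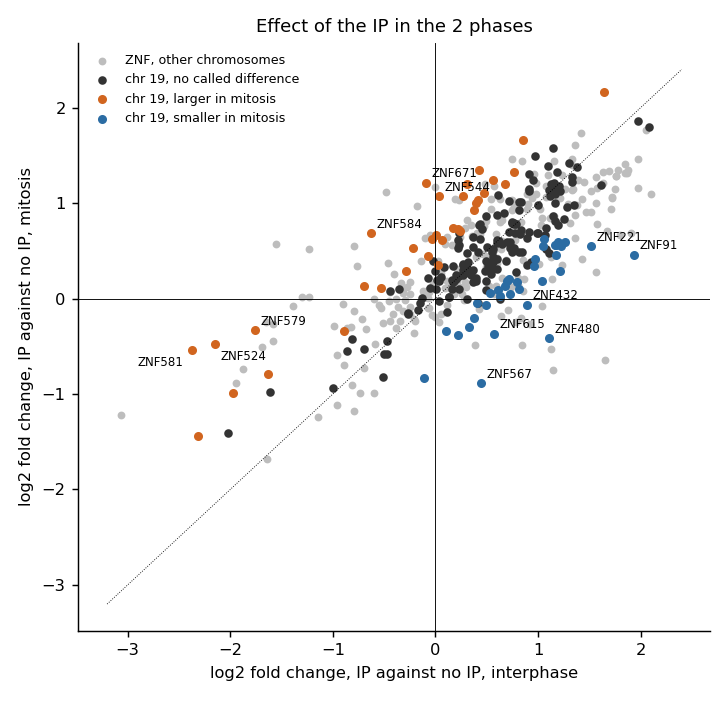
Log2 fold change of the IP against no IP in interphase (horizontal) and in mitosis (vertical) for 220 chromosome 19 ZNF genes and 235 ZNF genes on other chromosomes (grey); the dotted line marks equal effects. Orange points had a larger and blue points a smaller effect in mitosis at an adjusted p below 0.05, 34 of each, and the labelled genes are the 6 with the largest differences in each direction.

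Base composition moved with the response to the IP. For the 59 members with a GC content below 40% the median log2 fold change in the interphase IP was 0.83, and 53 were higher and 0 lower. The medians of the next classes were 0.61 (98 members of 40% to 45%, 78 higher and 1 lower) and 0.32 (35 members of 45% to 50%, 19 higher and 0 lower). Among the 28 members of 50% or more, 0 were higher and 19 lower, with a median of -0.58. Of all genes of 50% or more, 3868 of 5537 were lower. In the classes below 40%, of 40% to 45% and of 45% to 50%, 124 of 2229, 342 of 3015 and 593 of 2360 genes were lower. The shares of all genes that rose in the same 4 classes were 81.8%, 63.2%, 38.7% and 5.89%, and the members' shares were 89.8%, 79.6%, 54.3% and 0%. The order by GC content was thus that of the gene table as a whole. Across the members, GC content and the interphase change correlated at r = -0.73 (Spearman's rho = -0.58, n = 220 genes that share the same libraries), against rho = -0.71 over 13141 genes.

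In mitosis the relation to GC content was looser. The members' shares that rose were 71.2%, 65.3%, 71.4% and 14.3% in the 4 classes, with medians of 0.52, 0.55, 0.54 and -0.38, so the first 3 classes differed little. Over all genes the shares were 66.1%, 51.2%, 36.1% and 8.16%. The correlation over the members was r = -0.49 (rho = -0.29), against rho = -0.56 over 13141 genes and -0.63 over ZNF genes elsewhere. Among the members of 45% to 50% GC, 25 of 35 rose and 1 fell in the mitotic IP, against 852 and 589 of 2360 genes in all. Removing the trends with transcript length and GC content that all genes shared left 61 members higher and 49 lower in interphase, and 80 higher and 39 lower in mitosis, with medians of 0.02 and 0.15. The part that base composition or length plays in the response was not tested beyond this.

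**Figure D4:**
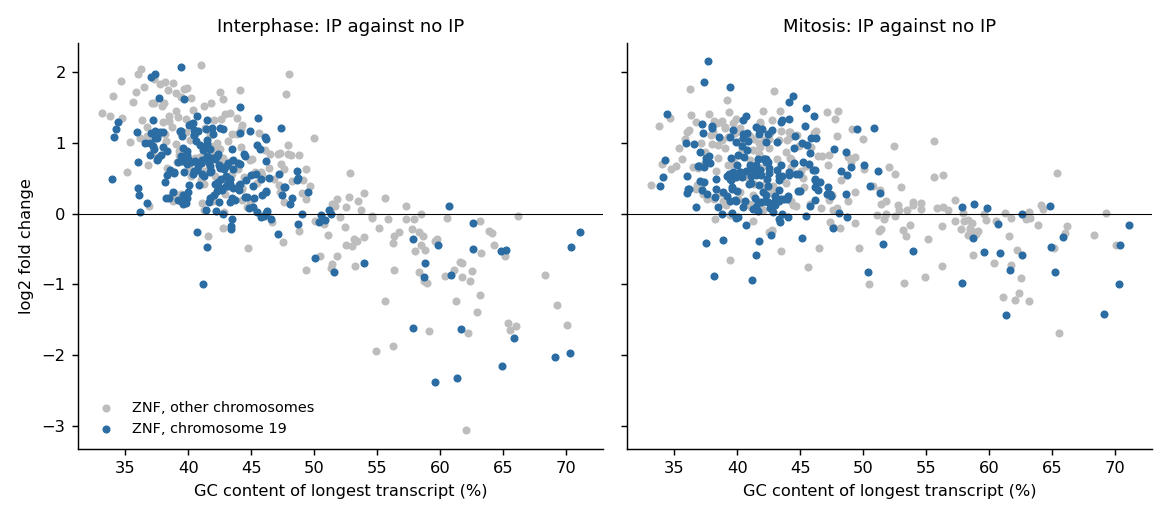
Log2 fold change of the IP against no IP (vertical) against the GC content of the longest annotated transcript (horizontal, percent) for chromosome 19 ZNF genes (blue) and ZNF genes on other chromosomes (grey), interphase at left and mitosis at right. Transcripts below 40% GC lie mostly above 0 and those of 50% or more mostly below it, with a wider range in interphase.

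Counts of changed members also differed by linker copies and by transcript length. Of the 62 members with at least 4 linker copies in their coding sequence, 57 rose in the interphase IP (91.9%) and 0 fell. With 1 to 3 copies, 44 of 64 rose and 1 fell, and with none 48 of 91 rose and 19 fell. Among ZNF genes elsewhere, 17 of 19, 33 of 42 and 82 of 165 rose in the same 3 classes, and 0, 1 and 47 fell. In mitosis the members' shares that rose in these classes were 64.5%, 64.1% and 57.1%, against 78.9%, 73.8% and 44.2% elsewhere. Whether linker copies go with the response apart from GC content was not tested. ZNF845, whose finger repeat is printed above, stood at 2.6 and 2.5 FPKM without IP and at 5.56 and 7.06 FPKM in the interphase IP. Its values in mitosis were 2.98 and 3.15 FPKM without IP and 3.3 and 3.96 FPKM in the IP, a difference between the effects of -0.85 ± 0.2 (adjusted p = 0.00737 in limma). By transcript length, 29 of 62 members below 3000 bases rose and 14 fell in the interphase IP, against 55 of 64 and 3 at 5000 bases or more. For all genes the shares that rose were 15.1% below 3000 bases and 63.7% at 5000 or more. In the same classes 2958 of 5147 and 577 of 3840 genes fell.

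Position along the chromosome gave a further grouping. Members less than 500 kb from the next formed 10 runs of at least 5 genes, which held 205 of the 220. In most runs the interphase IP was higher for most genes. Over all genes 37.6% were higher in the IP in interphase and 32.8% in mitosis. Run 3 (19668152 to 21852068, ZNF101 to ZNF43, which includes ZNF93) had 18 of 19 members higher in interphase and 13 in mitosis (8 without replicate 2 of mitosis without IP), with 0 lower. Run 4 (23116974 to 24129967, ZNF730 to ZNF254) had 6 of 6 higher in both phases, ZNF91 among them. Run 6 (36182059 to 37779590, ZNF565 to ZNF573) had 21 of 25 higher and 0 lower in interphase, and 20 higher and 1 lower in mitosis. Run 8 (51571277 to 53580269, ZNF175 to ZNF331), which holds 37 members, had 29 higher and 1 lower in interphase and 20 higher and 2 lower in mitosis. These counts rest on fits that keep the trends with length and GC content. With the trends removed, run 3 had 3 higher and 3 lower members in interphase and 4 and 4 in mitosis, and run 4 had 3 and 1 in interphase and 1 and 1 in mitosis. Run 6 then had 4 higher and 11 lower in interphase and 5 and 6 in mitosis, and run 8 had 6 and 11 in interphase and 10 and 13 in mitosis, so the balance of these 2 runs turned.

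Run 9 (55476331 to 56624176, ZNF628 to ZNF71) stood on the other side. Of its 15 members 9 fell and 5 rose in the interphase IP, with a median of -0.53, and 7 fell and 4 rose in mitosis. Over all genes 37% fell in interphase and 31.7% in mitosis. The 9 genes with other names in the same interval were mostly lower too, with 7 lower and 1 higher in each phase. The median GC content of the transcripts of the run's members was 59.6%. The 5 that rose, ZNF542P, ZNF583, ZNF667, ZNF471 and ZNF470, lie next to each other and have GC contents of 38.3% to 42.3%. ZNF667 rose by 1.22 and ZNF471 by 1.05 on the log2 scale, while ZNF581 and ZNF580 in the same run had log2 fold changes of -2.38 and -1.63. Without replicate 1 of mitosis without IP, 3 members of run 9 were called lower in the mitotic IP. With length and GC trends removed, 6 of its members were lower and 4 higher in interphase, and 1 was lower and 3 higher in mitosis.

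In run 10 (57191499 to 58489533, ZNF264 to ZNF446), the effect of the IP was larger in mitosis in 18 of 41 members and smaller in 2. Over all genes it was larger in 27.2% and smaller in 19.9%. The run was singled out after its values were seen. In the interphase IP 22 of its members were higher and 4 lower, and in the mitotic IP 32 were higher and 1 lower. The run's median was 2.58 and 2.32 FPKM in interphase without IP, 3.91 and 4.12 in the interphase IP, 1.97 and 2.07 in mitosis without IP, and 5.09 and 4.17 in the mitotic IP. ZNF584, ZNF671 and ZNF544 belong to it. ZNF134 stood at 6.59 and 7.85 FPKM without IP and 8.89 and 11.2 with it in interphase, and at 7.74 and 6.84 FPKM without IP and 20.5 and 19.6 with it in mitosis, a difference of 0.92 ± 0.19. ZNF304 had a difference of 0.8 ± 0.18.

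Some members of run 10 went against this pattern or had no called effect of the IP. ZNF587 and ZNF460 had smaller effects in mitosis, with differences of -0.6 and -0.43. ZNF274, the member known to bring SETDB1 to the 3′ ends of ZNF genes themselves, stood at 3.73 and 4.16 FPKM without IP and 3.81 and 4.08 in the IP in interphase, and at 2.55 and 2.77 FPKM without IP and 4.06 and 2.98 in the IP in mitosis. Its IP effect was called in neither phase (adjusted p = 0.998 and 0.098 in limma). The count of larger effects in the run was 9 to 14 without 1 library, lowest without replicate 1 of the interphase IP. It was 9, with 4 smaller, under quantile normalization, and 17 with the length and GC trends removed. Among the 11 genes with other names in the same interval, 2 had a larger and 1 a smaller effect.

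**Figure D5:**
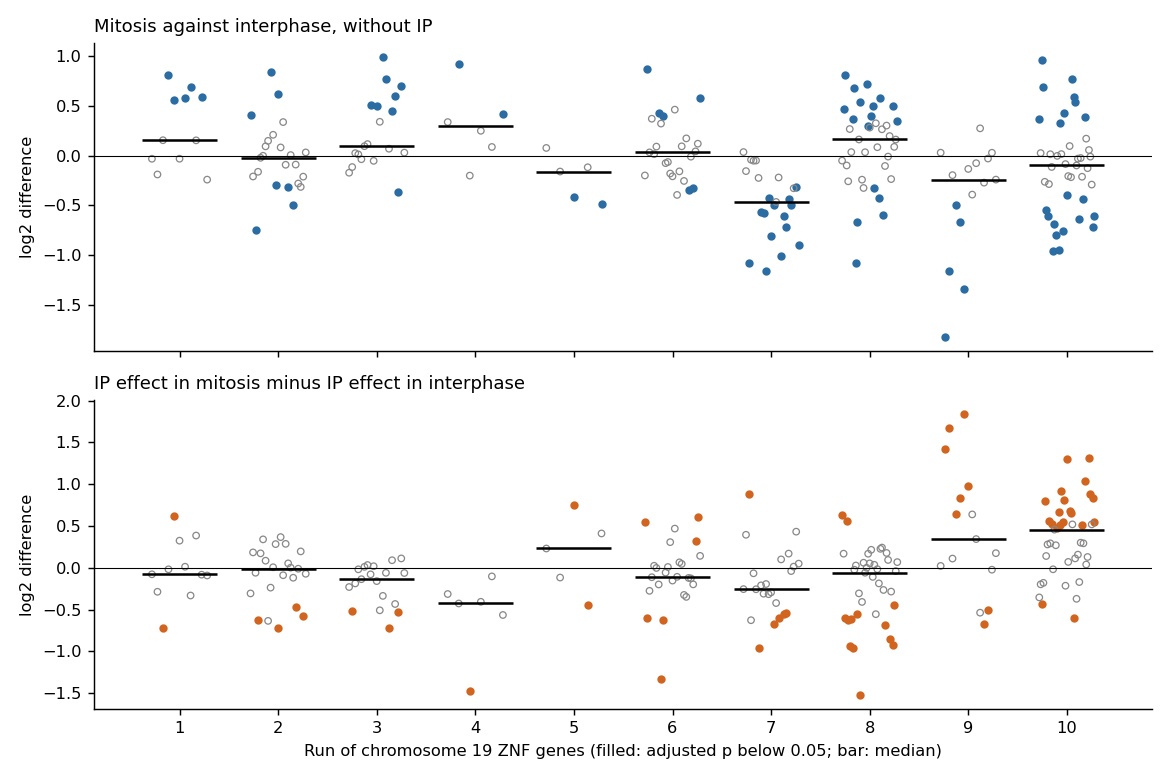
Log2 difference of mitosis against interphase without IP (above) and the IP effect in mitosis minus that in interphase (below) for the members of the 10 runs on chromosome 19 (horizontal axis, run number). Filled points have an adjusted p below 0.05 and bars are medians; run 7 has 14 filled points below 0 and none above it in the upper panel, and run 10 has 18 above 0 and 2 below in the lower one.

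Without IP, the comparison of mitosis with interphase asked how the RNA itself differed. Of the 220 members 94 changed, in both directions: 43 were higher and 51 lower in mitosis, against 26.2% and 25.5% of all genes (51.7% together), and 57 and 54 of 235 ZNF genes elsewhere. The median log2 difference was -0.03 over the members and 0 over all genes. ZNF714 rose most, from 7.29 and 7.43 FPKM to 14.7 and 16.6, a log2 difference of 0.99 ± 0.13 (adjusted p = 0.000397 in limma). ZNF460 rose from 12.5 and 13.9 FPKM to 26.7 and 26.2, and ZNF724P, ZNF146, ZNF700 and ZNF649 rose by 0.92, 0.87, 0.84 and 0.81 on the log2 scale. ZNF579 fell most, by 1.83, followed by ZNF581, which fell by 1.35 from 12.5 and 15 FPKM to 4.89 and 4.68. ZNF524, ZNF222, ZNF616 and ZNF428 fell by 1.16, 1.16, 1.08 and 1.08. In such bulk samples fewer cells that express a gene and less RNA per cell cannot be told apart.

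The count of higher members was 27 without replicate 1 of interphase without IP and also without replicate 2 of mitosis without IP. The split between the directions moved with the scaling, to 49 higher and 38 lower with quantile normalization and 33 higher and 63 lower with centring on the library medians.

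Run 7 (43533187 to 44500523, ZNF575 to ZNF180), which holds ZNF45 and the tandem series from ZNF221 to ZNF235, was mostly lower in mitosis. It too was singled out after its values were seen. Without IP, 14 of its 23 members were lower in mitosis and 0 higher, with a median log2 difference of -0.47. Over all genes 25.5% were lower and 26.2% higher. Median levels over the run were 2.04 and 1.98 FPKM in interphase and 1.11 and 0.985 FPKM in mitosis without IP, and 4.04 and 4.03 FPKM in the interphase IP and 2.1 and 2.07 FPKM in the mitotic IP. Mitotic libraries were therefore lower with and without IP, while the IP libraries were higher in each phase.

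Single genes of run 7 are given without IP. ZNF222 stood at 2.48 and 1.98 FPKM in interphase and 0.534 and 0.359 FPKM in mitosis without IP, a log2 difference of -1.16 ± 0.18 (adjusted p = 0.000977 in limma). ZNF226 went from 11.6 and 8.25 FPKM to 3.95 and 4.82, and ZNF180 from 5.33 and 5 FPKM to 2.09 and 2.52. ZNF224, known as a repressor that works with TRIM28 and as a partner of WT1, went from 3.42 and 3.35 FPKM to 1.83 and 2.43, a log2 difference of -0.49 ± 0.13 (adjusted p = 0.0111 in limma). ZNF233 went from 0.784 and 0.791 FPKM to 0.0467 and 0.13. The members of the run not called were ZNF575, ZNF576, ZNF283, ZNF404, ZNF45, ZNF221, ZNF225, ZNF234 and ZNF285, with log2 differences of -0.47 to 0.03.

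Leaving out 1 library left 10 to 14 members of run 7 lower in mitosis and 0 higher. Quantile normalization gave 11 lower and 0 higher, centring on the library medians 17 and 0, and removal of length and GC trends 17 and 1. Among the 10 genes with other names in the same interval, 1 was higher and 2 lower. In run 8, 12 of 37 members were higher in mitosis without IP and 5 lower, against 26.2% and 25.5% of all genes. Fewer members of run 8 were called higher when any single library without IP was left out. Median centring gave 6 higher and 5 lower in run 8, removal of length and GC trends 6 and 7, and quantile normalization 13 and 4.

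Within the IP libraries, 59 members were higher and 67 lower in mitosis than in interphase, against 35.8% and 25.6% of all genes. The ZNF genes elsewhere had 75 higher and 62 lower of 235. With centring the split over the members was 44 and 78, and with quantile normalization 49 and 72. This comparison shares its libraries with the interaction, so the same genes lead both. ZNF544, ZNF584, ZNF587B and ZNF551 were higher in the mitotic IP by 1.42, 1.37, 1.29 and 1.24 on the log2 scale. ZNF551 stood at 3.65 and 3.41 FPKM in the interphase IP and 9.78 and 9.62 FPKM in the mitotic one. ZNF91 fell by 1.68, ZNF222 by 1.35, ZNF233 by 1.26 and ZNF836 by 1.22. In run 7, 17 of 23 members were lower in the mitotic than in the interphase IP and 0 higher.

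The partners through which KRAB zinc finger proteins silence chromatin went in both directions. All 22 listed genes had a row. In the interphase IP 11 rose and 7 fell (37.6% and 37% of all genes), and in the mitotic IP 4 rose and 11 fell (32.8% and 31.7% of all genes), with medians of 0.34 and -0.3. The corepressor TRIM28 was lower in both, from 49.2 and 44 FPKM to 24.2 and 16.3 in interphase and from 21.5 and 25.7 FPKM to 11.3 and 17.3 in mitosis. CBX5, which encodes the heterochromatin protein HP1 alpha, was higher in both, from 61.3 and 65 FPKM to 221 and 245 and from 136 and 119 FPKM to 438 and 393. SETDB1 stood at 4.84 and 4.84 FPKM without IP and 4.99 and 4.59 in the IP in interphase, and at 5.4 and 4.28 FPKM without IP and 2.11 and 2.38 in the IP in mitosis.

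The IP effect was smaller in mitosis in 12 of the 22 partners and larger in 1, CBX1, against 19.9% and 27.2% of all genes. ATRX, a chromatin remodeller of repeats and telomeres, went from 4.68 and 3.84 FPKM to 19.3 and 18.8 in interphase and stood at 5.81 and 5.36 FPKM without IP and 5.45 and 5.53 in the IP in mitosis, a difference of -1.96 ± 0.17 (adjusted p = 8.08e-05 in limma). DNMT1, the maintenance DNA methyltransferase, and CHD4, a remodeller of the NuRD complex, had differences of -2.24 and -2.25. Without IP, 12 partners were higher and 2 lower in mitosis, the 2 being TRIM28 and EHMT2, against 26.2% and 25.5% of all genes.

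Of 15 listed zinc finger genes of chromosome 19 under other names, 10 had a row. In the interphase IP 3 rose and 5 fell (37.6% and 37% of all genes). In the mitotic IP 3 rose and 4 fell (32.8% and 31.7% of all genes). ZFP14, ZFP28 and ZFP30 rose in both, by 0.9, 1 and 0.93 on the log2 scale in interphase and by 0.53, 0.64 and 1.26 in mitosis. ZSCAN5A, ZSCAN18, ZBTB7A and ZBTB45 fell in both. MZF1 fell in interphase, with a log2 fold change of -0.95, and was at -0.24 in mitosis, where it was not called. ZSCAN22 (-0.06 and 0.19) and ZIK1 (0.4 and 0.45) were called in neither phase.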

How the data were processed

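RNA with and without IP of hnRNP U was sequenced by the authors from 8 libraries, per the labels' protocols from RNA depleted of rRNA with a directional kit. The deposited gene table (build hg38) holds FPKM per library and ratio columns of IP to total RNA made by the authors, per the file headers. TopHat and StringTie are named in the submitters' processing notes. Strand use in counting and the treatment of reads that fit more than 1 gene are not given in the sources used here, and the loci of 19 members overlap another row. The lncRNA table was not used here. All 220 members matched GENCODE release 29 (GRCh38) by symbol or older symbol, as did 97.5% of genes. Length and GC content are those of the longest transcript. GTF coding sequences gave the printed stretches. No protein sequence was used.

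limma 3.58.1 in R 4.3.3 (lmFit, eBayes with trend) was fitted to log2(FPKM + 1) of all 13471 genes, with a coefficient for each of 4 groups, 4 residual degrees of freedom and no filter. P-values were adjusted by Benjamini and Hochberg within each of 5 comparisons, a call being an adjusted p below 0.05. The script was tested on simulated data. Members named as most changed were the 8 largest calls in each direction for the IP effects, 6 for the interaction and for mitosis without IP and 4 for mitosis in the IP, with the same sign in both pairs, plus the 5 highest members; others are members of runs. Members and lists were chosen with earlier results of these data known. Alternatives were a pseudocount of 0.1, a mean of at least 1 FPKM, quantile normalization, median centring, removal of length and GC trends, a replicate block, no overlapping loci and leaving out each library.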

Additional observations from a re-analysis of the deposited data

Results flagged for a closer look

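The effect of the IP differed between mitosis and interphase by an interaction test in limma in the following named members, given as the effect in mitosis minus that in interphase on the log2 scale. The difference was 1.84 in ZNF581, 1.68 in ZNF524 and 1.42 in ZNF579, where a fall in the interphase IP was weaker in mitosis, and 1.31 in ZNF584, 1.31 in ZNF671 and 1.04 in ZNF544. It was -1.52 in ZNF480, -1.47 in ZNF91, -1.34 in ZNF567, -0.966 in ZNF221, -0.962 in ZNF432 and -0.941 in ZNF615. Groups of 2 libraries are too small for a check of single outlying libraries.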

How the results depend on the processing

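The limits are 2 libraries a group, no control IP and no fragment counts. With length and GC trends removed, the IP effect was called upward in 61 members and downward in 49 in interphase, and in 80 and 39 in mitosis. Larger effects in mitosis, called in 55 members, then outnumbered smaller ones. The medians became 0.0212 (interphase IP), 0.149 (mitotic IP), 0.164 (their difference) and -0.17 (mitosis without IP). Quantile normalization gave 20 larger and 54 smaller effects in mitosis, and medians of 0.734, 0.534, -0.137 and 0.0337 in the same order. Median centring gave 0.66 (interphase IP), 0.58 (mitotic IP), -0.114 (mitosis without IP) and -0.143 (mitosis in the IP). A pseudocount of 0.1 gave 0.839, 0.751 and -0.0665 for the IP effects and mitosis without IP. A mean of at least 1 FPKM gave 0.691 and 0.595 for the IP effects. The cause was not tested.

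Leaving out 1 library, with the lone sample assumed to vary like the other groups, gave 127 to 150 higher and 19 to 21 lower members for the IP in interphase, and 117 to 135 and 11 to 20 for the IP in mitosis. Larger effects in mitosis numbered 18 to 28 and smaller ones 19 to 34. Without IP, 27 to 46 were higher and 36 to 49 lower in mitosis, and in the IP 40 to 57 and 57 to 67.

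Of 64 results for named members, 59 kept call and direction with length and GC trends removed. ZNF580 in interphase turned to 0.0732 (adjusted p = 0.726 in limma), and ZNF524 (interphase and interaction), ZNF787 and ZNF653 (mitosis) lost the call. The other settings changed no named call among the results they could give (62 of 64 with a mean of at least 1 FPKM and 61 with no overlapping loci), other than that of ZNF221 in the interaction with a pseudocount of 0.1 (adjusted p = 0.0926 in limma) and without 1 library.

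The labels do not say whether same-numbered libraries are pairs. Their deviations from the group means correlated at 0.088 to 0.528 over all genes and -0.061 to 0.356 over the members. With the replicate number as a block, the IP gave 153 higher and 22 lower members in interphase and 138 and 20 in mitosis, 36 had larger and 40 smaller effects in mitosis, and mitosis against interphase gave 49 and 55 without IP and 61 and 69 in the IP. The block changed no named call.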
